A study of Mus musculus with 6 samples.

Results

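The microRNAs encoded inside the Hox gene clusters were measured by small RNA sequencing in the liver of C57BL/6N mice, 3 females and 3 males, all 12 weeks old, in normal health, fed a chow diet and described as littermates. The study as a whole is about SAB, a protein of mitochondria, and the difference between the sexes in acute liver injury, and these livers are the uninjured ones. The members were the rows of the deposited table named miR-10a-5p, miR-10a-3p, miR-10b-5p, miR-10b-3p, miR-196a-5p and miR-196b-5p, and all 6 names were present among the 1907 distinct miRNAs. The rule that names them uses no measured value, although the set was proposed with earlier results of these data known. Of the 6, 3 passed the filter on low counts and were tested between the sexes, namely miR-10a-5p, miR-10a-3p and miR-10b-5p.

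Hox genes encode transcription factors that set the identity of positions along the body axis, and they lie in clusters in which genes toward the 3′ end are active in more anterior parts of the embryo and genes toward the 5′ end in more posterior parts. The miR-10 genes sit beside the Hox genes of paralogue group 4, and the miR-196 genes lie further toward the 5′ end, near group 9. A miRNA hairpin gives a 5p and a 3p arm, one of which is usually kept, and bases 2 to 8 of the mature miRNA, its seed, pair with target mRNAs. Targets of miR-196 known in vertebrates include Hox mRNAs, among them Hoxb8.

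The mature sequences, taken from RefSeq (GRCm38.p6), show why the members are read in pairs. They are given 5′ to 3′ with the seed in capitals.
miR-10a-5p: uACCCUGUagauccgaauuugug
miR-10b-5p: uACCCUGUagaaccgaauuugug
miR-196a-5p: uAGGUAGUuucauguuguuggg
miR-196b-5p: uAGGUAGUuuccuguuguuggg
miR-10a-3p: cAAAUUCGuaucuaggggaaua
miR-10b-3p: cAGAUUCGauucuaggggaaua
The 5p members of each family have the same seed, ACCCUGU for miR-10 and AGGUAGU for miR-196, and no other miRNA of the table with a RefSeq sequence carries either. Counted from 1 at the 5′ end, miR-10a-5p and miR-10b-5p differ by U12A and miR-196a-5p and miR-196b-5p by A12C. The 3p arms of miR-10 differ by A3G, U9A and A10U, so that their seeds differ too. A read with an error at position 12 can therefore be counted for the wrong 5p member, and the sources used here do not say how the authors treated mismatches.

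The Mir10a hairpin lies on the plus strand at chr11:96317165-96317274 (mm10) with no gene annotated over it in GENCODE M21, 0.99 kb before Hoxb4 and 11.04 kb after Hoxb5. The Mir10b hairpin lies on the plus strand at chr2:74726070-74726137, in an intron of 2 of the 3 Hoxd4 transcripts and of 1 of the 6 Hoxd3 transcripts. Both are shown here because nearly all counts of the members came from the first of them. The mature arms are in capitals.
Mir10a: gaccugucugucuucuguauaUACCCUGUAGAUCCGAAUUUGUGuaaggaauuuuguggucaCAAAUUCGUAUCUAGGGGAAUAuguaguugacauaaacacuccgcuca
Mir10b: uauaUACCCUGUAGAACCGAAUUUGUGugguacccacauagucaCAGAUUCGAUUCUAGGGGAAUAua
The same mature miR-196a-5p comes from both Mir196a-1 (chr11:96265164-96265265) and Mir196a-2 (chr15:102973350-102973434), and the table gives it 1 position, the second. Mir196a-1 lies 51.9 kb from Mir10a in the HoxB cluster on the same strand, 6.19 kb before Hoxb9. Mir196a-2 lies between Hoxc10 and Hoxc9, in an intron of 1 of the 2 Hoxc5 transcripts. Mir196b (chr6:52230081-52230165, minus strand) overlaps exons of 2 of the 5 Hoxa9 transcripts.

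**Figure D1:**
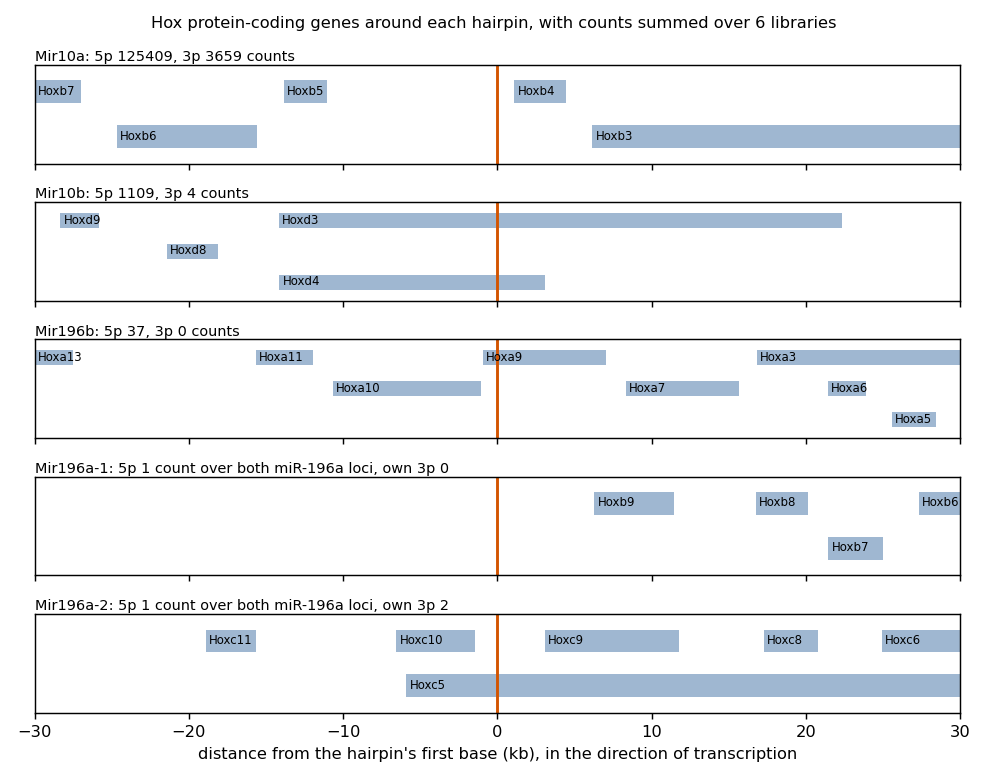
Hox protein-coding genes (bars, GENCODE M21) within 30 kb of each hairpin (orange line), along the direction of transcription; the x axis is distance in kb and the panel titles give counts summed over the 6 libraries. The hairpin beside Hoxb4 had 125409 counts of its 5p arm, and Mir10b, in an intron of Hoxd4, had 1109. The 3 miR-196 hairpins near group 9 had 37 counts or fewer of any arm.

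Depth was 5756419, 3506852 and 3285249 counts in the female livers, against 6426337, 4617645 and 16444675 in the male livers. The hepatocyte miRNA miR-122-5p was the most abundant miRNA, at 315381 to 316386 CPM in females and 343399 to 387169 CPM in males, where CPM is counts scaled to a library of 1000000 after TMM adjustment. Its deposited counts were round numbers, at 1910000, 1140000 and 1110000 in females and 2170000, 1640000 and 5690000 in males. These CPM values and the depths carry that rounding. On the CPM scale male replicate 2 was the highest library for the 3 tested members, whose sex differences are given with and without it. It was singled out for this level, so leaving it out moves their negative log2 fold changes upward. Other libraries mattered too. Without female replicate 3 the log2 fold change, female over male, was -0.08 for miR-10a-5p and -0.37 for miR-10b-5p. Without male replicate 1 these were -0.30 and -0.66.

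The 5p arm of miR-10a was by far the main Hox cluster miRNA of the liver in both sexes. Its level was 3272, 3140 and 2526 CPM in the female livers, against 2986, 4161 and 3105 CPM in the male livers. The ranges overlapped, with male replicate 2 above all other libraries and female replicate 3 below them. The female mean was 2979 ± 398 CPM and the male mean 3417 ± 647 CPM (SD, n = 3 each). The log2 fold change, female over male, was -0.20 (SE 0.15; 95% interval -0.52 to 0.12), with an adjusted p of 0.547 in edgeR's quasi-likelihood test with Benjamini-Hochberg adjustment over the 370 tested miRNAs. Without male replicate 2 the log2 fold change was -0.03 (adjusted p = 0.949, edgeR). By mean level it ranked 31 of the 370, between miR-103-3p at 3398 CPM and let-7j at 3096 CPM. The ranges of both neighbours over the 6 libraries overlapped that of miR-10a-5p. It made up 0.270 to 0.344% of the counts of a female library and 0.294 to 0.382% of a male library, and 96.1 to 96.6% of the counts of all 6 members in each library.

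The other arm of this hairpin, miR-10a-3p, was far lower than miR-10a-5p. It stood at 96.6, 84.1 and 76.7 CPM in females, against 87.7, 106 and 95.003 CPM in males, and the ranges overlapped. Female over male, the log2 fold change came to -0.16 (95% interval -0.55 to 0.22, SE 0.18) with an adjusted p of 0.697 in edgeR. Without male replicate 2 it was -0.08 (adjusted p = 0.828, edgeR). The share of the 3p arm within a library needs no scaling between libraries. Of each 1000 counts of both miR-10a arms, 28.7, 26.1 and 29.5 were of the 3p arm in females, against 28.5, 24.95 and 29.7 in males. The mean share was 28.1 ± 1.76 in females and 27.7 ± 2.47 in males (SD, n = 3 each), with p = 0.8 in an exact two-sided permutation test. The smallest p that 3 libraries against 3 allow is 0.1. Without male replicate 2 the difference in mean share, female minus male, was -1.03 per 1000, against 0.36 with it. Over all 6 livers the share ran from 24.95 to 29.7 of 1000.

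The paralogue miR-10b-5p, which has the same seed, was at a small part of the level of miR-10a-5p and lower in each female than in each male liver on the CPM scale. Its counts were 145, 89 and 62 in females and 161, 164 and 488 in males, which gave 23.9, 24.6 and 17.7 CPM in females against 25.5, 38.7 and 31.0 CPM in males. The highest female and the lowest male library were close, and before TMM adjustment they crossed, at 25.4 CPM in female replicate 2 and 25.1 CPM in male replicate 1. The female mean was 22.1 ± 3.83 CPM and the male mean 31.7 ± 6.65 CPM (SD, n = 3 each). The log2 fold change of -0.51 (SE 0.23; 95% interval -1.02 to -0.01) did not pass the threshold of 0.05 after adjustment (unadjusted p = 0.0478, adjusted p = 0.268, edgeR). Without male replicate 2 it was -0.35 (adjusted p = 0.392, edgeR). In rank miR-10b-5p was 184 of the 370 tested miRNAs, between miR-744-5p at 27.2 and miR-221-5p at 26.9 CPM, both with ranges that overlapped its own.

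**Figure D2:**
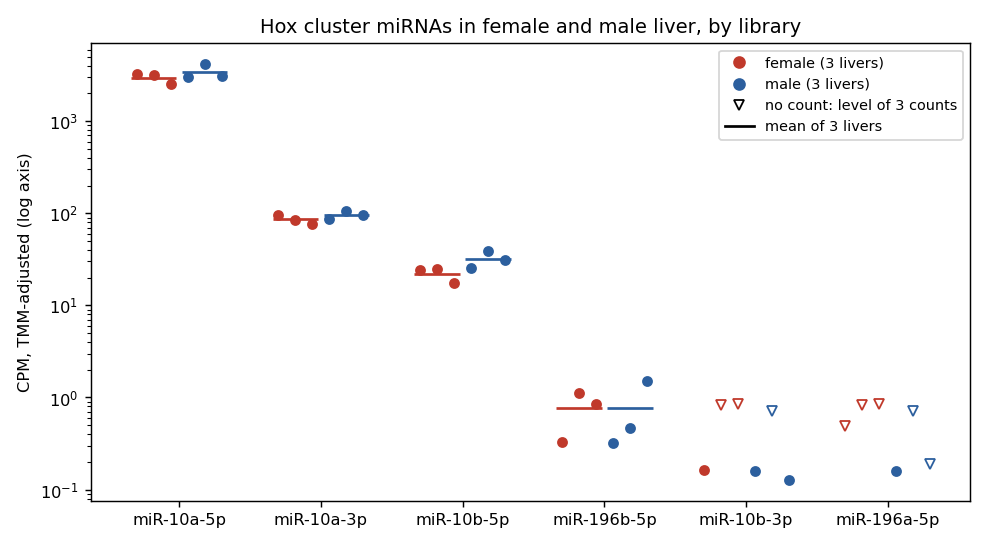
Level of the 6 Hox cluster miRNAs in each library (CPM after TMM adjustment, log axis), with females in red and males in blue; lines are means of 3 livers and open triangles mark libraries with no count, drawn at the level of 3 counts. The members form steps from 2979 CPM in females and 3417 CPM in males for miR-10a-5p to 0.76 and 0.77 CPM for miR-196b-5p, and the sexes overlap for every member with counts in all libraries except miR-10b-5p.

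Relative to miR-10a-5p, the level of miR-10b-5p was lower in the female livers. Of the counts of both 5p members, miR-10b-5p took 0.726, 0.778 and 0.695% in females, against 0.846, 0.922 and 0.988% in males. The groups did not overlap, although the counting intervals of single libraries did. Female replicate 2, the highest female, had a 95% exact binomial interval of 0.625 to 0.957%, and male replicate 1, the lowest male, one of 0.721 to 0.986%; these intervals cover counting error only. The mean share was 0.733 ± 0.0421% in females and 0.919 ± 0.0712% in males (SD, n = 3 each), a difference of -0.19 percentage points, female minus male. In an exact permutation test (two-sided) this had p = 0.1, the lowest value that test can reach here, and 0.3 after Benjamini-Hochberg adjustment over the 3 shares tested. Counts of miR-10a-5p exceeded those of miR-10b-5p by 127 to 143 times in females and by 100.2 to 117 times in males. With each library left out in turn the difference ran from -0.22 to -0.15 percentage points, and without male replicate 2 it was -0.18. As the groups did not overlap, leaving out a library could not change its sign. The share of reads counted for the wrong 5p member was not tested.

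**Figure D3:**
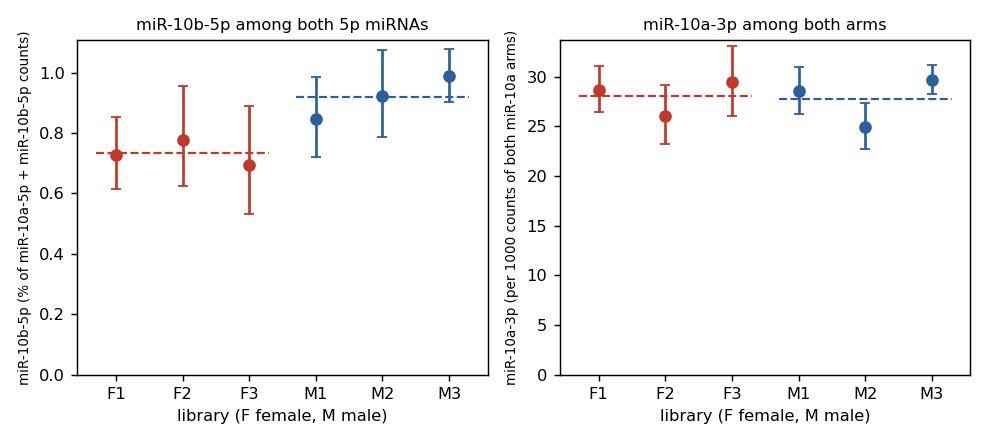
Left, miR-10b-5p as a percent of the counts of miR-10a-5p and miR-10b-5p in each library; right, miR-10a-3p per 1000 counts of both miR-10a arms. Bars are 95% exact binomial intervals and dashed lines the means of 3 livers; the 3 female shares of miR-10b-5p lie below the 3 male shares, from 0.695 to 0.778% against 0.846 to 0.988%, while the miR-10a-3p shares overlap.

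The miR-196 members and the 3p arm of miR-10b were near the limit of detection. miR-196b-5p had 2, 4 and 3 counts in females and 2, 2 and 24 in males, or 0.33, 1.11 and 0.86 CPM in females against 0.32, 0.47 and 1.52 CPM in males. Male replicate 3, the deepest library, was highest and the groups overlapped. Summed over a sex, miR-196b-5p reached 0.717 CPM without TMM adjustment in females (95% exact binomial interval 0.328 to 1.36) and 1.02 in males (0.677 to 1.47), with intervals that cover counting error only. Male replicate 3 held 24 of the 28 male counts, and without it the male sum was 4 counts, or 0.362 CPM (0.0987 to 0.927), below the female value; leaving it out was chosen after seeing the data. miR-196a-5p had no count in females and 1 count in males, in male replicate 1. For no count among 12548520 in the females, the upper limit of the 95% exact binomial interval was 0.294 CPM without TMM adjustment. A level of 3 counts there would be 0.239 CPM. miR-10b-3p had 1, 0 and 0 counts in females and 1, 0 and 2 in males. Of each 1000 counts of both miR-10b arms it took 2.28 ± 3.95 in females and 3.42 ± 3.14 in males (SD, n = 3 each; p = 1.0, exact two-sided permutation test). At this depth no difference between the sexes was detected for these members. In the fit with no filter their adjusted p ranged from 0.775 for miR-196a-5p to 0.907 for miR-10b-3p (edgeR), with miR-196b-5p at 0.857.

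The order of levels was miR-10a-5p, miR-10a-3p, miR-10b-5p, miR-196b-5p, miR-10b-3p and miR-196a-5p. Neighbours down to miR-196b-5p did not overlap in any library. Over all libraries together miR-196b-5p had 0.924 CPM without TMM adjustment (95% exact binomial interval 0.651 to 1.27) and miR-10b-3p 0.0999 (0.0272 to 0.256), while the interval of miR-196a-5p, 0.000632 to 0.139, overlapped that of miR-10b-3p. The mature sequences of the members are 22 or 23 bases long. The efficiency of adapter ligation, which differs between sequences, was not measured here.

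The other mature miRNAs of the Hox clusters had between 0 and 6 counts each. The 5 listed, miR-196a-1-3p, miR-196a-2-3p, miR-196b-3p, miR-615-5p and miR-615-3p, had 9 counts together over the 6 libraries, and none of them passed the filter. Of these, miR-615-3p, from an intron of Hoxc5, held 6, with none in females and 2, 1 and 3 in males. With 12548520 counts in females against 27488657 in males, the level that no count allows in females, 0.239 CPM without TMM adjustment (3 counts), lay above the male value of 0.218.

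None of the 3 tested members passed the threshold, where 25 of the 370 tested miRNAs (6.76%) did, 12 of them higher (3.24%) and 13 lower (3.51%) in females. This count of 25 was 9 with female replicate 2 left out, 10 with female replicate 3 left out and 12 with male replicate 3 left out. The balance of directions moved as well, with 13 of 20 higher in females with no TMM factor, 7 of 26 with upper-quartile factors and 23 of 32 without female replicate 1. All 3 had negative log2 fold changes, from -0.51 to -0.16, with a median of -0.20 beside -0.01 over all tested miRNAs. As miR-10a-5p and miR-10a-3p are arms of the same hairpin, their signs are not separate observations. The CPM ranges of the sexes did not overlap for 1 of the 3, miR-10b-5p, as for 21.6% of all tested miRNAs. With no TMM factor the median of all tested miRNAs moved to 0.13, and with upper-quartile factors to -0.10. The sign of the 3 members was negative under both scalings. With no TMM factor the values were -0.05 for miR-10a-5p, -0.02 for miR-10a-3p and -0.37 for miR-10b-5p.

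The miR-99 and miR-100 family is an old relative of miR-10, and its miRNAs are encoded outside the Hox clusters. The sequences show the relation.
miR-10a-5p: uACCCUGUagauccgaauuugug
miR-100-5p: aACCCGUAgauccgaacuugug
miR-99a-5p: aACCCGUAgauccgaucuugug
The longest run of bases shared by miR-10a-5p and miR-100-5p is 11 bases, guagauccgaa, which starts at base 7 of the first and base 6 of the second, so the seeds differ. Of the 6 listed family members 5 were tested and none passed, with adjusted p from 0.165 to 0.986 (edgeR). The most abundant, miR-99a-5p, stood at 1049, 949 and 899.8 CPM in females, against 1085, 1640 and 1156 CPM in males. Its groups did not overlap, the only such case among the 5 tested relatives, beside 21.6% of all tested miRNAs. Male replicate 2 was again the highest library. The log2 fold change of miR-99a-5p came to -0.42 with an SE of 0.16 and an adjusted p of 0.165 in edgeR. Without male replicate 2 the log2 fold change was -0.21 (adjusted p = 0.343, edgeR). For miR-100-5p it was -0.09 and for miR-99b-5p -0.07, both positive with no TMM factor and without male replicate 2.

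**Figure D4:**
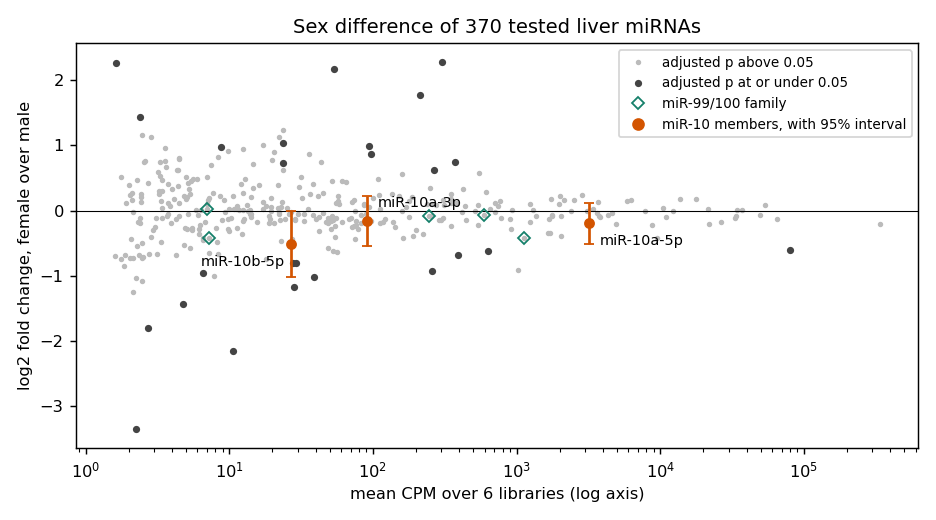
Log2 fold change, female over male, against mean CPM over the 6 libraries (log axis) for the 370 tested miRNAs; orange points are the 3 tested miR-10 members with 95% intervals and green diamonds the miR-99/100 family. The 3 members lie between -0.51 and -0.16, among miRNAs with an adjusted p above 0.05.

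Likeness of pattern was taken as the root mean square difference of log2 CPM over the 6 libraries, with each miRNA centred on its own mean. Closest to miR-10a-5p was miR-30c-2-3p, at 0.035 log2 units, where the median tested miRNA lay 0.342 away. Next came miR-676-3p at 0.085, miR-92a-3p at 0.089, miR-1843a-3p at 0.095 and miR-10a-3p at 0.096. For miR-10b-5p the closest was miR-6390 at 0.105, then miR-1843a-5p at 0.141, miR-99a-5p at 0.142, miR-3535 at 0.152 and miR-10a-5p at 0.179, where the median tested miRNA lay 0.419 away. Over the 5 libraries other than male replicate 2, an alternative chosen after seeing the data, 2 of the 5 closest miRNAs were kept for each member. These were miR-30c-2-3p (0.036) and miR-10a-3p (0.068) for miR-10a-5p, and miR-6390 (0.115) and miR-1843a-5p (0.120) for miR-10b-5p, with medians of 0.260 and 0.340 over the tested miRNAs. Relative to its mean, miR-10a-5p stood 0.40 log2 units higher in male replicate 2 and miR-10b-5p 0.56 higher, the highest of the 6 libraries in both cases. The SD of log2 CPM over the 6 libraries was 0.23 for miR-10a-5p, 0.17 for miR-10a-3p and 0.38 for miR-10b-5p, against a median of 0.30.

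**Figure D5:**
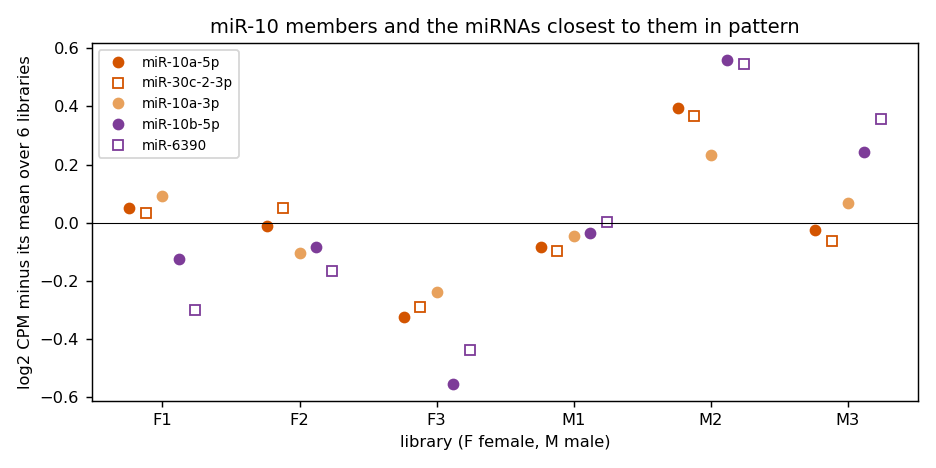
Log2 CPM minus its mean over the 6 libraries (y axis) in each library for miR-10a-5p, miR-10a-3p and miR-10b-5p (filled circles) and for the miRNA closest in pattern to each 5p member (open squares). Male replicate 2 is the highest library for the miR-10 members, at 0.40 for miR-10a-5p and 0.56 for miR-10b-5p. The open squares were chosen for likeness over these same libraries, so their sharing of this peak is no separate observation.

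Liver tissue holds several cell types, and in such samples fewer cells of a type and less RNA per cell cannot be told apart. All 6 stromal markers had a count in the table. Their summed level was 8923 to 11440 CPM in females and 12121 to 12804 CPM in males, so the groups did not overlap. The marker miR-143-3p made up most of it, at a mean of 8724 CPM over the 6 libraries. Taken singly, the sexes overlapped for miR-145a-5p, miR-199a-5p and miR-214-3p and did not for miR-143-3p, miR-199a-3p and miR-199b-5p. Over all 370 tested miRNAs the ranges of the sexes did not overlap for 21.6%. None of the 6 stromal markers passed the threshold, and their median log2 fold change was -0.22. The 2 endothelial markers summed to 67757 to 71793 CPM in females and 68743 to 76011 CPM in males, with a median log2 fold change of -0.02. The 4 leukocyte markers summed to 3990 to 4556 CPM in females and 2869 to 4419 CPM in males, with a median of 0.47. The 3 hepatocyte markers summed to 370138 to 373751 CPM in females and 396616 to 440224 CPM in males, which did not overlap. Most of this sum was miR-122-5p, whose log2 fold change was -0.21, while miR-192-5p stood at 0.02 and miR-194-5p at 0.17, and the list's median was 0.02 with none past the threshold. The 4 biliary markers summed to 644 to 821 CPM in females and 782 to 923 CPM in males, with a median log2 fold change of -0.22, and the 4 erythroid markers to 223 to 378 CPM in females and 235 to 275 CPM in males, with a median of 0.18. The 3 muscle markers summed to 16.5 to 34.6 CPM in females and 18.9 to 34.3 CPM in males, with a median of 0.29 over the 2 tested, and the pancreas marker miR-375-3p stood at 2.49 to 4.79 CPM in females and 1.18 to 1.42 CPM in males. Of all these markers 2 passed the threshold, the leukocyte marker miR-223-3p (log2 fold change 0.62, adjusted p = 0.0467, edgeR) and miR-375-3p (1.43, adjusted p = 0.0438, edgeR), both higher in females. Over all 370 tested miRNAs 25 passed (6.76%). Neither marker call was firm. With a library left out, miR-223-3p did not pass without female replicate 2 (adjusted p = 0.140), female replicate 3 (adjusted p = 0.273) or male replicate 3 (adjusted p = 0.133, edgeR), and miR-375-3p passed in 0 of the 6 fits, with adjusted p from 0.0557 to 0.220 (edgeR). Every one of these markers had a count in at least 1 library. The kidney marker miR-204-5p had 1 count in 1 female and 1 count in 1 male library. The part of these cell types in the levels of miR-10b-5p was not tested.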

How the data were processed

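The deposited values are the authors' estimated counts for each mature miRNA, without normalisation. The submitters' processing notes name Bowtie, Partek and mm10 but no version, and the labels' protocols name a Qiagen miRNA kit. The sources used here give nothing on trimming, mismatches or molecular identifiers. Of 2045 rows, 138 repeated another exactly and were left out. Counts were rounded; all values of the members were whole already. Samples were grouped by their labelled sex and numbered in accession order, so numbers pair no animals. The sources do not say that each library is a separate preparation from a separate animal beyond calling the mice littermates; p-values measure the spread between these libraries. Males and then females run through the numbers in the sample titles, so sex and that order cannot be told apart.

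The whole table was fitted with edgeR 4.0.16 in R 4.3.3 (TMM, filterByExpr by sex with a minimum count of 10). The robust quasi-likelihood test was used, with Benjamini-Hochberg adjustment over 370 miRNAs and a threshold of 0.05. It was tried on simulated data of lower dispersion than the common value of these data. That trial does not show the power of the test for the members. SE and intervals were derived from the F statistic and its degrees of freedom. Log2 CPM used a prior count of 2. Total counts ranged from 3285249 to 16444675. No library pair was a duplicate, with a chi-square per degree of freedom of at least 25.3. Alternatives were other scalings, filters and tests, DESeq2 1.42.0 and limma 3.58.1 among them, thinning, summed pairs and leaving out each library. Members, lists and tests were chosen with earlier results of these data known. Named were all members, the listed relatives, the 5 closest miRNAs in pattern and neighbours in rank.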

Additional observations from a re-analysis of the deposited data

How the results depend on the processing

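Of 166 values under alternatives, 148 kept their direction and side of the threshold or stayed close. No paired analysis was possible because the replicate numbers follow accession order and pair no animals. The log2 fold change of miR-10a-5p ranged from -0.30 to -0.03 (adjusted p from 0.243 to 0.949) and that of miR-10b-5p from -0.66 to -0.35 (adjusted p from 0.141 to 0.666) over all alternatives, and neither passed in any. The count of 25 miRNAs past the threshold was 13 with a minimum count of 50 and 16 after thinning, where fewer miRNAs were tested, and from 9 to 32 with a library left out: 9 if this was female replicate 2, 10 for female replicate 3 and 12 for male replicate 3. The share of miR-10b-3p, female minus male, moved from -1.14 to 3.92 per 1000 after thinning, which left 1 count of it. When a library was left out it ranged from -3.42 to 0.24. The share of miR-10a-3p, female minus male, ran from -1.25 to 1.35 per 1000 around 0.36, within 1 SD of it, and that of miR-10b-5p from -0.22 to -0.15 percentage points. The summed CPM of miR-196b-5p, female minus male, was -0.30, and 0.36 without male replicate 3; this alternative and the likeness of pattern without male replicate 2 were chosen after seeing the data. Sign also changed for 3 relatives that never passed. With no TMM factor miR-99b-5p stood at 0.078 and miR-100-5p at 0.059, and without male replicate 2 at 0.20 and 0.15. With a library left out miR-99b-5p ranged from -0.23 to 0.20, with 0.050 for female replicate 3, and miR-100-5p from -0.23 to 0.15. miR-99b-3p stood at -0.069 with upper-quartile factors, -0.067 after thinning and as low as -0.15 when a library was left out, up to 0.26. The cause was not tested. With the near-identical pairs summed, miR-10b-5p had no value of its own, and the minimum count of 50 left out miR-99a-3p and miR-99b-3p.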

Other observations

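Among pairs of mature miRNAs of equal length that differ by 1 base and hold at least 1000 counts together, the miR-10 pair was the most unequal. There were 13 such pairs, and miR-10b-5p held 0.877% of the counts of its pair, 1109 against 125409 of miR-10a-5p. The next most unequal pair was let-7e-5p, at 2.68% beside let-7a-5p, and then miR-19a-3p, at 4.98% beside miR-19b-3p. The relatives miR-100-5p and miR-99a-5p also form such a pair, in which miR-100-5p held 17.2%. These are values over the 6 libraries together, and some miRNAs enter several pairs.

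The 3p arm took a different share of the counts for miR-10a than for miR-10b. Over the 6 libraries the 3p arm took 28.3 of each 1000 counts of both arms for miR-10a (95% exact binomial interval 27.5 to 29.3) and 3.59 for miR-10b (0.98 to 9.18), with 4 counts of miR-10b-3p in all. The intervals cover counting error only. Among 126 hairpins with both arms named and at least 1000 counts, the median share of the rarer arm was 1.07%. The share was 2.83% for miR-10a, with 77 hairpins lower, and 0.359% for miR-10b, with 44 lower. In the related family it was 0.646% for miR-99a, 1.19% for miR-99b and 0.0428% for miR-100. Whether reads of miR-10a-5p counted as miR-10b-5p move the value of miR-10b was not tested.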
